A study of Caenorhabditis elegans with 4 samples.

Results

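The genes described here encode subunits of Mediator, TFIID, RNA polymerase II and Integrator, the large assemblies that start, carry out and end the making of messenger and small nuclear RNA. They were taken by name, as the genes of the count table whose symbol in the Ensembl WBcel235 annotation is mdt, taf, rpb or ints followed by a number. No value enters this name pattern, but it was chosen with earlier results of these data known. This pattern took 59 of 20181 genes, of which 20 are Mediator, 17 TFIID, 11 RNA polymerase II and 11 Integrator genes. Their RNA was measured by sequencing in young adult *Caenorhabditis elegans*, in gonads dissected from the wild-type strain N2 (2 libraries) and in intact worms carrying the mutation *glp-4 (bn2)* (2 libraries, called whole worms here), with about 50 gonads or worms in each library. The *bn2* allele is temperature-sensitive and serves here to deplete germ cells, which mutants kept warm largely fail to produce; the labels give no growth temperature. The groups differ in genotype and in tissue at once, and these cannot be told apart.

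RNA polymerase II is recruited to promoters by general factors, of which TFIID, built from the TATA-binding protein and TBP-associated factors (TAFs), recognises the core promoter. Mediator bridges gene-specific activators and the polymerase through its head, middle and tail modules and a detachable kinase module. Integrator associates with the polymerase, cleaves nascent RNA, forms the 3′ ends of spliceosomal small nuclear RNAs and ends transcription early at other genes. In the *C. elegans* germline, transcription is active in much of the gonad and ceases in maturing oocytes, which carry stored maternal RNA into the embryo.

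Libraries held 19538620 to 25624824 counts. Levels are given as CPM per kb, that is, counts per 1000000 counts of the TMM-adjusted library divided by the gene's merged exon length in kilobases. Enriched means an adjusted p under 0.05 together with a fold of at least 2, and all adjusted p-values below are Benjamini-Hochberg values over all genes tested, from a quasi-likelihood fit in edgeR. Log2 fold changes are gonad minus whole worm, with their standard error (SE). Whether the duplicates are separate cultures is not stated, so the p-values reflect the spread among these 4 samples alone. That spread may be technical. The fit estimates each gene's spread partly from the other tested genes, so a p-value does not rest on that gene's 4 values alone. The 8 germ cell markers were all gonad-enriched and summed to 16131 and 16750 CPM in gonads and to 189 and 210 CPM in whole worms, so whole worms kept 1.21% of the gonad level. The 6 intestine and 6 body wall muscle markers were all enriched in whole worms, and gonads held 0.411% and 1.82% of their whole-worm level. For pharynx, neuron and epidermis markers, gonads held 0.206%, 14.7% and 25.2% of the summed whole-worm level. Among these, the epidermis marker *lin-26* was gonad-enriched (log2 fold change 1.51), and the neuron marker *snb-1* was higher in whole worms by less than 2-fold (-0.71). These single genes made up most of their sums in gonads. There *lin-26* had 216 and 237 of 221 and 241 CPM, and *snb-1* had 44.7 and 41.4 of 59.2 and 56.6 CPM. Of 6 markers of the gonadal sheath and spermatheca, 1 was gonad-enriched and 4 were enriched in whole worms, and *sth-1* was at 0 in both gonad libraries. In such bulk samples, fewer cells of a type and less RNA per cell cannot be told apart.

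Most of these subunit genes were higher in gonads. All 59 passed the count filter, 44 of them were gonad-enriched, 1 was enriched in whole worms and 14 were neither, while 30.9% of all 13101 tested genes were gonad-enriched and 53.1% were enriched in whole worms. By the adjusted p alone, 52 members were higher in gonads and 2 in whole worms, against 36.4% and 56.6% of all tested genes. Their median log2 fold change was 1.75, against -1.50 over all tested genes, and every member lay above that overall median. Both gonad libraries were above both whole-worm libraries for 55 members, and for 38.2% of all tested genes. Differences were mostly moderate: 38 members were higher in gonads by between 1 and 3 on the log2 scale, 6 by more than 3, and 14 differed by less than 2-fold. Whole worms kept a median of 29.8% of the gonad level of a member. Of 59 members, 58 stood above the 1.21% of the summed germ cell markers.

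**Figure D1:**
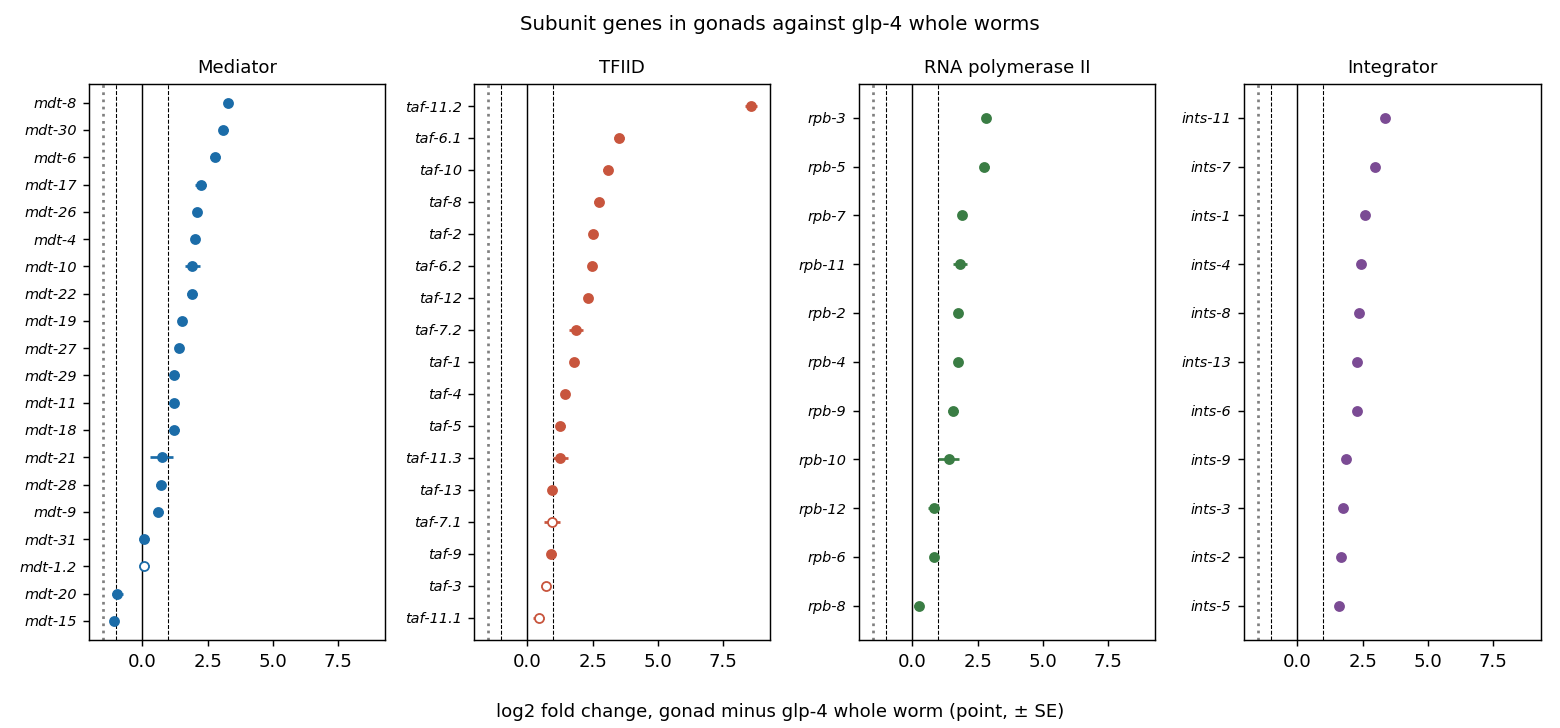
Log2 fold change (gonad minus *glp-4* whole worm, ± SE, 2 libraries a group) of each subunit gene, by complex; open circles mark genes on the X chromosome, dashed lines a 2-fold difference and the dotted line the median of all tested genes. All 11 Integrator genes lie beyond the 2-fold line, *taf-11.2* stands apart at 8.56, and *mdt-15* and *mdt-20* lie below 0.

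The complexes differed in how evenly their genes behaved. Integrator was the most even, with 11 of 11 genes gonad-enriched, a median log2 fold change of 2.31 and a range from 1.601 to 3.35. Of the RNA polymerase II genes 8 of 11 were gonad-enriched, at a median of 1.73 and a range from 0.26 to 2.84. TFIID had 12 of 17 gonad-enriched, with a median of 1.80 and a range from 0.44 to 8.56. Mediator had 13 of 20 genes gonad-enriched and 1 enriched in whole worms, a median of 1.32 and a range from -1.09 to 3.27. These medians are descriptions, and the difference between complexes was not tested.

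The steepest gene of all was *taf-11.2* (WBGene00006394, chromosome I, 7132747 to 7134370, plus strand), which encodes a form of the histone-fold subunit TAF11. It had 2802 and 3165 counts in the gonad libraries and 6 and 11 in the whole-worm libraries, or 128 and 136 CPM per kb against 0.267 and 0.408 CPM per kb. The groups lay far apart, and whole worms held 0.256% of the gonad level, less than the germ cell markers kept. The log2 fold change was 8.56 ± 0.23 (SE), with an adjusted p of 8.68e-18, and 48 of the 13101 tested genes had a higher one. The next member, *taf-6.1*, stood at 3.52.

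TAF11 is encoded by 3 genes in this annotation, and the other two behaved differently. The gene *taf-11.1*, on the X chromosome (4255170 to 4256812), had 8.11 and 6.76 CPM per kb in gonads and 5.70 and 5.28 CPM per kb in whole worms. Its libraries did not overlap, but the log2 fold change of 0.44 ± 0.21 had an adjusted p of 0.0587; it became 0.52 with relative log expression scaling (adjusted p = 0.0253) and 0.58 without gonad replicate 2 (adjusted p = 0.0355). The gene *taf-11.3* on chromosome III had 8.10 and 5.56 CPM per kb in gonads and 2.65 and 2.99 CPM per kb in whole worms, with a log2 fold change of 1.27 ± 0.28 with an adjusted p of 0.000277. Within each library, *taf-11.2* made up 88.7% and 91.7% of the TAF11 level per kb in gonads and 3.09% and 4.70% in whole worms. In whole worms *taf-11.1* supplied 66.1% and 60.9% and *taf-11.3* the remaining 30.8% and 34.4%. The summed TAF11 level was 144 and 148 CPM per kb in gonads and 8.62 and 8.68 CPM per kb in whole worms.

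**Figure D2:**
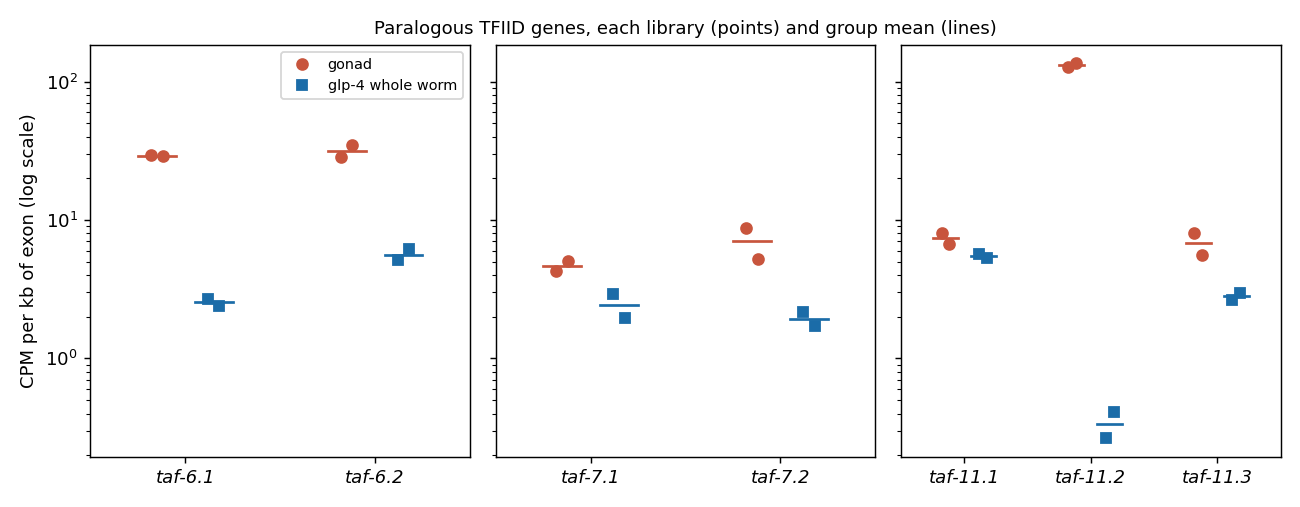
Level of each paralogous TFIID gene in CPM per kb of exon (log scale), with a point per library and a line at the mean of the 2 libraries of a group. Among the TAF11 genes *taf-11.2* is the highest in gonads and the lowest in whole worms, while the libraries of the other genes differ by far less between groups.

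TAF6, which pairs with TAF9 in the TFIID core, has 2 genes, and both were gonad-enriched. The autosomal *taf-6.1* had 29.4 and 28.8 CPM per kb in gonads and 2.70 and 2.38 CPM per kb in whole worms, which is a log2 difference of 3.52 ± 0.18 (adjusted p = 2.22e-13). Its paralog *taf-6.2* had 28.7 and 34.9 CPM per kb in gonads and 5.12 and 6.13 CPM per kb in whole worms, and its log2 fold change was 2.50 ± 0.15 (adjusted p = 3.65e-12). The genes stood at about the same level in gonads, where the ratio of *taf-6.1* to *taf-6.2* was 1.02 and 0.827, while *taf-6.1* was the lower of the pair in whole worms, with ratios of 0.527 and 0.388.

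TAF7, which binds TAF1, also has 2 genes. The X-linked *taf-7.1* had 4.29 and 5.07 CPM per kb in gonads and 2.91 and 1.96 CPM per kb in whole worms; its log2 fold change of 0.95 ± 0.29 passed the test (adjusted p = 0.00482) but stayed under 2-fold, and became 0.67 without whole-worm replicate 2 (adjusted p = 0.111). It shares 10.5% of its exon length with *tag-241* on the opposite strand, which was higher in whole worms. The autosomal *taf-7.2* had 8.78 and 5.27 CPM per kb in gonads and 2.16 and 1.73 CPM per kb in whole worms, with a log2 fold change of 1.86 ± 0.26 (adjusted p = 1.35e-06). The ratio of *taf-7.1* to *taf-7.2* was 0.489 and 0.963 in gonads and 1.35 and 1.14 in whole worms. Ratios within a library do not depend on library scaling, but ratios per kb depend on the length used. The gene *taf-7.2* has 1568 nucleotides of merged exon and 708 of coding sequence, against 907 and 762 for *taf-7.1*. In counts *taf-7.1* was the lower in every library, with 57 and 46 against 73 and 70 in whole worms. Which TAF7 gene stood higher in whole worms is therefore not settled. In all 5 paralog ratios the gonad and whole-worm values were apart, and each gave an exact two-sided permutation p of 0.333, the smallest that 2 libraries against 2 allow, also after adjustment over the 5. Groups apart were common: both gonad libraries were higher for 38.2% of all tested genes and both whole-worm libraries for 58.2%. The share over other gene pairs was not computed, and the TAF11 ratios reuse the same genes. This count is therefore not read as a trait of paralogs.

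Among the other TAF genes, those of the histone-fold partners TAF8 and TAF10 were both gonad-enriched. The gene *taf-10* had 95.3 and 106 CPM per kb in gonads and 10.6 and 13.2 CPM per kb in whole worms (log2 fold change 3.07 ± 0.17, adjusted p = 5.20e-13), and *taf-8* differed by 2.73 ± 0.16. TAF-4 pairs with TAF-12 and is held in the cytoplasm of the earliest *C. elegans* embryo by the oocyte proteins OMA-1 and OMA-2, a step known to keep early blastomeres transcriptionally silent. The gene *taf-4* had 55.6 and 66.5 CPM per kb in gonads and 21.8 and 22.8 CPM per kb in whole worms, and *taf-12* had 60.7 and 71.2 against 12.95 and 13.6 CPM per kb. Both were gonad-enriched, by 1.45 ± 0.14 and 2.31 ± 0.15 on the log2 scale. The ratio of *taf-4* to *taf-12* was 0.916 and 0.934 in gonads and 1.68 and 1.67 in whole worms. Of 8 ratios of histone-fold partners computed, 6 had groups that lay apart, this among them, each with an exact two-sided permutation p of 0.333 (0.444 after Benjamini-Hochberg adjustment over the 8), again the smallest possible. Several of the 8 share a gene, and without the share over other gene pairs this count is not read as a trait of partners.

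The most abundant TAF gene per kb was *taf-13*, which encodes the partner of TAF11, with 252 and 264 CPM per kb in gonads and 122 and 144 CPM per kb in whole worms. It was higher in gonads by 0.96 ± 0.13 (adjusted p = 9.70e-07), just under the fold minimum, and reached it under 4 of the alternative settings. The TAF6 partner gene *taf-9* was likewise higher in gonads by less than 2-fold, with 39.5 and 36.6 CPM per kb against 20.5 and 19.5 CPM per kb (0.93 ± 0.17, adjusted p = 2.83e-05). So was the X-linked *taf-3*, which in other animals encodes a reader of histone H3 methylation, with 5.91 and 5.79 CPM per kb against 3.49 and 3.63 CPM per kb (0.72 ± 0.17, adjusted p = 5.96e-04). The remaining *taf-1*, the TFIID scaffold, *taf-2* and *taf-5* were gonad-enriched by between 1.27 and 2.51.

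Mediator genes followed no single pattern. In the head module, which contacts the polymerase, 8 of 10 genes were gonad-enriched (80.0%, against 30.9% of all tested genes). The gene *mdt-8* had 171 and 192 CPM per kb in gonads and 16.7 and 20.8 CPM per kb in whole worms, which is a log2 difference of 3.27 ± 0.15 (adjusted p = 2.52e-14), and was the most abundant Mediator gene in gonads. The gene *mdt-30* had 52.2 and 60.5 against 5.56 and 7.49 CPM per kb (3.10 ± 0.17, adjusted p = 4.59e-13). The gene *mdt-6* had 49.4 and 42.7 against 7.19 and 6.14 CPM per kb (2.79 ± 0.18, adjusted p = 9.00e-12). In all 3 the lowest gonad library was several times the highest whole-worm library. The other head genes called, *mdt-11*, *mdt-17*, *mdt-18*, *mdt-19* and *mdt-22*, differed by between 1.21 and 2.24. Of these, *mdt-18* shares 34.5% of its exon length with the gonad-enriched *uri-1* on the opposite strand.

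The other head genes were *mdt-28* and *mdt-20*. The gene *mdt-28* had 40.5 and 33.6 CPM per kb in gonads and 24.3 and 20.9 CPM per kb in whole worms, higher in gonads by 0.71 ± 0.17 (adjusted p = 5.38e-04) and under the fold minimum. The gene *mdt-20* (WBGene00007020, chromosome IV, 1187802 to 1192978) had 8.24 and 8.14 CPM per kb in gonads and 14.6 and 16.8 CPM per kb in whole worms. Both whole-worm libraries stood above both gonad libraries, and its log2 fold change of -0.94 ± 0.21 passed the test (adjusted p = 2.66e-04) but not the fold minimum, which it reached under 4 alternative settings.

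In the middle module, 2 of 6 genes were gonad-enriched (33.3%, near the 30.9% of all tested genes), *mdt-4* at 2.03 ± 0.16 and *mdt-10* at 1.91 ± 0.29, and *mdt-4* shares 17.6% of its exon sequence with *ZK546.19* on the opposite strand. The X-linked *mdt-1.2* (17151522 to 17154647) had 9.01 and 8.20 CPM per kb in gonads and 7.97 and 8.37 CPM per kb in whole worms, and *mdt-31* had 20.4 and 16.7 against 16.97 and 18.02 CPM per kb. These were the 2 members whose groups overlapped, with log2 fold changes of 0.07 ± 0.18 (adjusted p = 0.689) and 0.08 ± 0.19 (adjusted p = 0.686). The gene *mdt-21* was the least abundant member in gonads, with 1.13 and 0.757 CPM per kb against 0.628 and 0.499 CPM per kb, or between 19 and 35 counts a library, and its difference of 0.74 ± 0.43 was not detectable at this depth (adjusted p = 0.105). The gene *mdt-9* had 18.5 and 19.8 against 13.2 and 12.1 CPM per kb (0.61 ± 0.18, adjusted p = 0.00406) and shares 43.9% of its exon length with a neighbour on the same strand. The activator-binding subunit MDT-1.1 is encoded by *sop-3*, which the name pattern does not take and which was added after the table's names were seen. It had 40.1 and 42.9 CPM per kb in gonads and 23.0 and 24.5 CPM per kb in whole worms, 4.45 and 5.24 times the level of *mdt-1.2* in gonads and 2.89 and 2.93 times in whole worms.

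The tail module receives signals from activators, and its 3 genes under mdt names went in both directions, with 1 of them enriched in whole worms. Tail subunits under other names are not counted here. The gene *mdt-15* (WBGene00007016, chromosome III, 5828557 to 5833751), whose product works with SBP-1 and nuclear hormone receptors to regulate fatty acid metabolism in the intestine, was the single member enriched in whole worms. It had 24.6 and 23.0 CPM per kb in gonads and 49.7 and 51.7 CPM per kb in whole worms, and its log2 fold change was -1.09 ± 0.13 (adjusted p = 9.30e-08), or 2.13-fold higher in whole worms. The gonad libraries held 2214 and 2201 counts of *mdt-15*, and the summed intestine markers stood there at 0.411% of their whole-worm level; which cells the *mdt-15* RNA came from was not tested. The tail genes *mdt-27* (1.41 ± 0.16) and *mdt-29* (1.24 ± 0.17) were gonad-enriched; *mdt-29* had 33.6 and 43.2 against 13.2 and 19.3 CPM per kb, and its log2 fold change was 0.97 without whole-worm replicate 1. Attached to the middle module, *mdt-26*, which in mammals helps recruit elongation factors, had 97.3 and 106 CPM per kb in gonads and 22.8 and 24.7 CPM per kb in whole worms (2.10 ± 0.14, adjusted p = 6.75e-12).

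**Figure D3:**
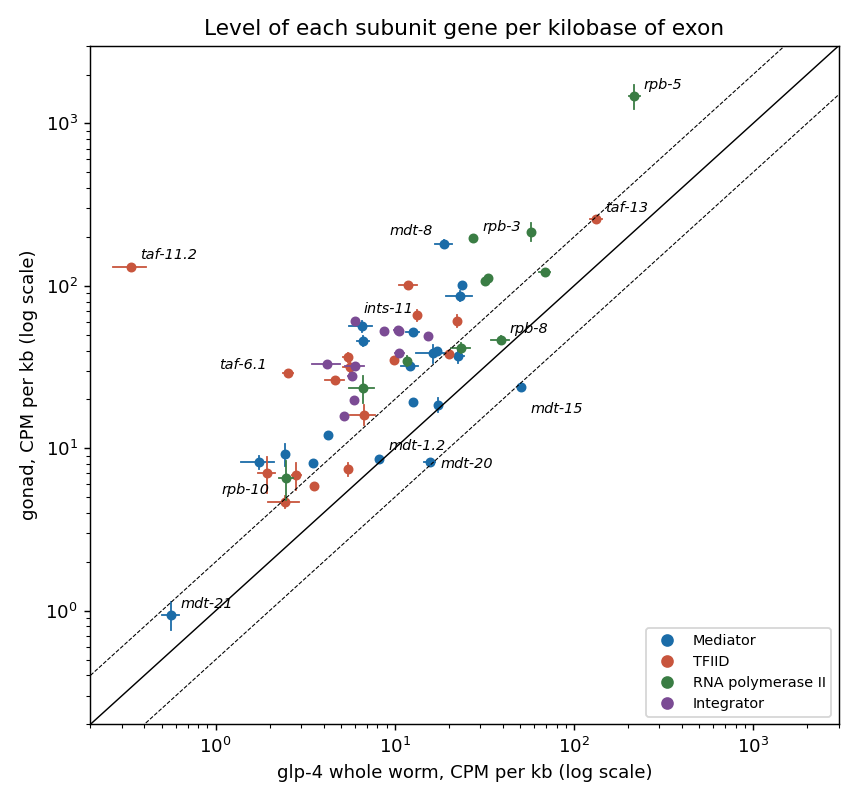
Level of each subunit gene in gonads against *glp-4* whole worms in CPM per kb (both axes on a log scale), with points at group means and bars joining the 2 libraries of a group; the solid line marks equal levels and the dashed lines a 2-fold difference. *rpb-5* is the highest gene on both axes, *mdt-21* is the lowest in gonads, *taf-11.2* lies far to the left, and *mdt-15* and *mdt-20* lie below the line of equal levels.

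RNA polymerase II subunits divide into those it shares with polymerases I and III (RPB5, RPB6, RPB8, RPB10 and RPB12) and its own. All 6 genes of its own subunits were gonad-enriched and had log2 fold changes from 1.56 to 2.84. Of the 5 genes of shared subunits 2 were gonad-enriched, not far from the 30.9% of all tested genes, and the median of the 5 was 0.82. With so few genes this count is not read as a trait of shared subunits, and own and shared subunits were not tested against each other. The highest difference was that of *rpb-3*, which encodes an assembly subunit of the core, with 202 and 191 CPM per kb in gonads and 27.7 and 27.1 CPM per kb in whole worms (2.84 ± 0.13, adjusted p = 4.65e-14). The stalk gene *rpb-7* had 243 and 188 against 59.6 and 56.1 CPM per kb (1.90 ± 0.15, adjusted p = 1.23e-10), and its stalk partner *rpb-4* differed by 1.73 ± 0.15. The gene of the second-largest subunit, *rpb-2*, differed by 1.75 ± 0.14, *rpb-11* by 1.83 ± 0.26 and *rpb-9* by 1.56 ± 0.18.

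The shared subunit genes ranged widely. The gene *rpb-5* (WBGene00019246, chromosome I, 6850409 to 6851253) was the most abundant of all members in both groups, with 1231 and 1731 CPM per kb in gonads and 203 and 233 CPM per kb in whole worms, with a log2 fold change of 2.77 ± 0.18 (adjusted p = 5.90e-12). By contrast *rpb-8* had 49.0 and 43.96 CPM per kb in gonads and 43.7 and 34.3 CPM per kb in whole worms. Its difference of 0.26 ± 0.17 did not pass the test (adjusted p = 0.148), and became 0.42 without whole-worm replicate 1 (adjusted p = 0.0379). The genes *rpb-6* and *rpb-12* were higher in gonads by less than 2-fold. The first had 127 and 116 against 63.6 and 73.6 CPM per kb (0.82 ± 0.15, adjusted p = 2.59e-05), and the second had 44.3 and 38.5 against 26.2 and 20.6 CPM per kb (0.82 ± 0.20, adjusted p = 6.63e-04). The gene *rpb-10*, with 343 nucleotides of exon, had 60 and 37 counts in gonads and 20 in each whole-worm library. Its log2 fold change of 1.40 ± 0.40 (adjusted p = 0.00278) became 1.003 without gonad replicate 1 (adjusted p = 0.0575).

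Integrator genes were the most uniform. The gene of the endonuclease subunit, *ints-11*, had 60.4 and 61.7 CPM per kb in gonads and 5.89 and 6.07 CPM per kb in whole worms, which is a log2 difference of 3.35 ± 0.14 (adjusted p = 9.12e-15), and was the most abundant of them in gonads. Its partners in the cleavage module, *ints-4* and *ints-9*, differed by 2.43 ± 0.15 and 1.87 ± 0.14. Of the backbone genes, *ints-7* had 34.7 and 31.2 against 4.92 and 3.47 CPM per kb (2.98 ± 0.17, adjusted p = 8.69e-13) and *ints-1* had 51.9 and 53.4 against 8.77 and 8.66 CPM per kb (2.60 ± 0.14, adjusted p = 2.16e-13). In whole worms the order changed, and *ints-2* was the most abundant there, with 47.4 and 51.05 CPM per kb in gonads and 15.1 and 15.4 CPM per kb in whole worms (1.69 ± 0.13, adjusted p = 1.09e-10).

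The smallest Integrator difference was that of *ints-5*, with 15.5 and 16.3 CPM per kb in gonads and 5.37 and 5.09 CPM per kb in whole worms (1.601 ± 0.15, adjusted p = 2.93e-09), which was also the least abundant gene of the complex in gonads. The gene *ints-3*, whose human counterpart also belongs to a single-stranded DNA-binding complex, had 19.4 and 20.3 against 6.096 and 5.74 CPM per kb (1.75 ± 0.14, adjusted p = 1.46e-10). The gene *ints-8* had 52.4 and 54.7 against 10.8 and 9.94 CPM per kb, and *ints-6* and *ints-13* differed by 2.27 ± 0.14 and 2.31 ± 0.13. For every Integrator gene the lower gonad library was above the higher whole-worm library. The same held for 55 of all 59 members and for 38.2% of all tested genes. Levels within the complex spanned 15.9 to 61.1 CPM per kb in gonads and 4.19 to 15.2 CPM per kb in whole worms, a narrower range than within the other complexes.

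Chromosomal position was not used by the name pattern. The 4 members on the X chromosome, *mdt-1.2*, *taf-3*, *taf-7.1* and *taf-11.1*, had log2 fold changes between 0.07 and 0.95, and 0 of 4 were gonad-enriched (2 passed the adjusted p alone, as did 10.2% of all tested X-linked genes in this direction). With relative log expression scaling, in DESeq2 and in 2 of the fits that left out a library, *taf-7.1* reached the fold minimum. Of the 55 autosomal members 44 were gonad-enriched and 1 was enriched in whole worms, where 48.3% of tested autosomal genes were; their median was 1.83. Among all tested genes 7.73% of those on X and 35.0% of those on the autosomes were gonad-enriched, with medians of -4.33 and -0.71, so the X-linked members stood above the median of their chromosome. In the TAF7 and TAF11 sets, the X-linked gene had the smallest log2 fold change of its set. With 4 genes on X, nothing is read from these counts beyond their values.

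Subunits known under other names extended this picture. Of 9 such genes 6 were gonad-enriched and 2 enriched in whole worms (against 30.9% and 53.1% of all tested genes), with a median of 1.48. Both of the latter belong to the Mediator kinase module, namely *dpy-22*, which encodes MED12, and *let-19*, which encodes MED13. The X-linked *dpy-22* had 14.2 and 14.4 CPM per kb in gonads and 33.3 and 40.4 CPM per kb in whole worms (-1.37 ± 0.14, adjusted p = 1.34e-08). The gene *let-19* had 16.5 and 16.8 against 46.5 and 54.3 CPM per kb (-1.60 ± 0.14, adjusted p = 1.14e-09). The kinase and cyclin of the same module went the other way, with *cdk-8* higher in gonads by 1.48 ± 0.13 and *cic-1* by 1.92 ± 0.16 (named after their values were seen). The TATA-binding protein gene *tbp-1* had 93.9 and 101 CPM per kb in gonads and 12.2 and 11.9 CPM per kb in whole worms (3.01 ± 0.14), and *sur-2*, which encodes the MED23 of vulval induction, differed by 2.17 ± 0.15. The gene of the largest polymerase subunit, *ama-1*, also named after its values were seen, had 101 and 99.3 against 27.5 and 25.4 CPM per kb (1.92 ± 0.14), close to the 109 and 114 against 32.1 and 34.4 CPM per kb of *rpb-2*.

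Other genes of the transcription machinery had mostly the same direction. Of 17 general initiation factor genes 14 were gonad-enriched, at a median of 1.496, and the highest were *gtf-2F2* of TFIIF (3.31 ± 0.14) and *gtf-2H3* of TFIIH (3.01 ± 0.16). Of 14 elongation factor genes 11 were gonad-enriched, at a median of 1.88, led by *pafo-1* (3.86 ± 0.14) and *ctr-9* (3.08 ± 0.15) of the PAF1 complex. The single elongation factor gene enriched in whole worms was *ell-1*, with 9.65 and 10.6 CPM per kb in gonads and 56.4 and 58.1 CPM per kb in whole worms (-2.50 ± 0.14, adjusted p = 3.86e-13). Of 10 polymerase I and III genes 9 were gonad-enriched, at a median of 2.03, and *rpc-25* (3.07 ± 0.23) and *rpac-19* (3.03 ± 0.31) had the largest differences. Beside these counts, 30.9% of all tested genes were gonad-enriched. The medians of these lists lay in the range of those of the 4 complexes, 1.32 to 2.31.

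**Figure D4:**
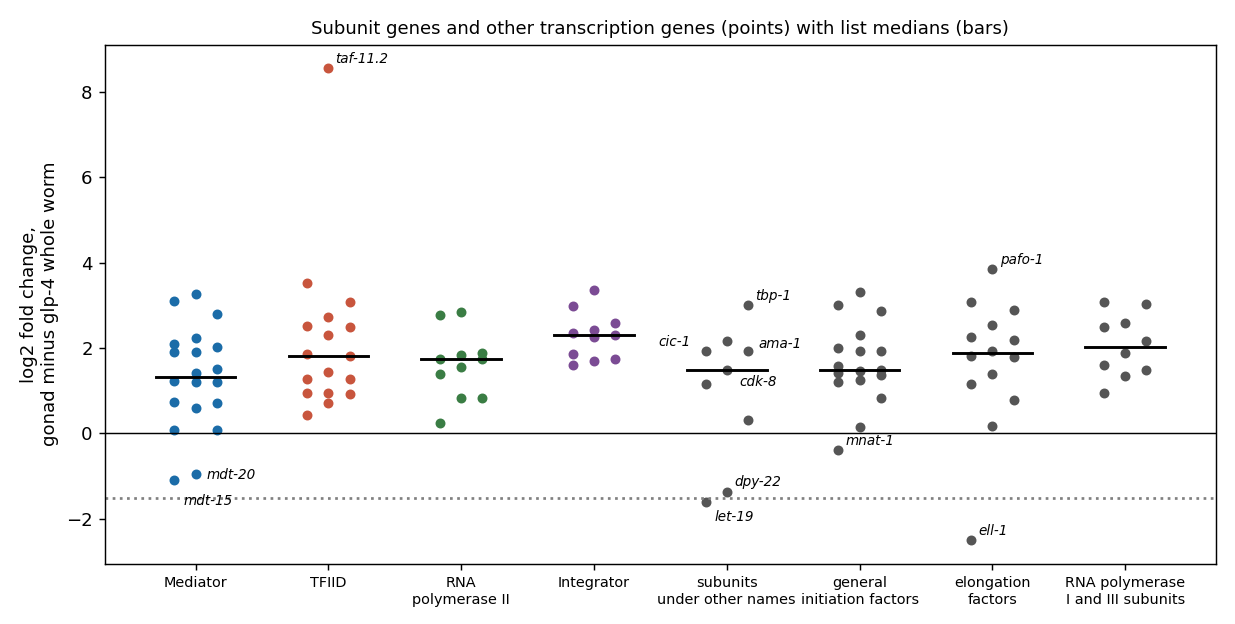
Log2 fold change (gonad minus *glp-4* whole worm) of each gene of the 4 complexes and of other transcription genes, with bars at list medians and a dotted line at the median of all tested genes, -1.50. The list medians lie between 1.32 and 2.31, while *let-19*, *dpy-22*, *mdt-15*, *mdt-20*, *mnat-1* and *ell-1* lie below 0.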

How the data were processed

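The authors deposited raw counts per gene and a normalized table on a log2 scale for 4 libraries; no source used here names the aligner, counting program, strand setting or genome build. Per the labels' protocols, ribosomal RNA was removed and cDNA amplified before sequencing. Each deposited log2 value equals, within 5e-05, the log2 of 8 plus the count rescaled to an average library size. Of 20182 rows, 1 repeated another under a second name and was left out; 19513 rows matched the Ensembl release 115 annotation of WBcel235, from which symbols, coordinates and exon lengths come. Counts were tested in edgeR 4.0.16 (R 4.3.3), with TMM scaling, filterByExpr (minimum count 10, minimum total 15), a robust quasi-likelihood fit and group as the only term. The same fit was run on simulated counts in which few genes changed, with random direction. In the real data 30.9% of tested genes were gonad-enriched and 53.1% enriched in whole worms. That run therefore cannot show how the scaling performs on such unequal groups. Chi-square per degree of freedom was 18.9 between gonad and 16.9 between whole-worm libraries, a spread beyond counting noise. Each library was entered as a sample, but these values cannot show whether the duplicates are separate cultures. Alternatives included DESeq2 1.42.0 and limma 3.58.1. Members, lists, tests and the naming rule were chosen with earlier results of these data known. Named with values were paralogs, the 3 highest and 3 lowest differences and 2 highest gonad levels of each complex, X-linked members and those not gonad-enriched; in related lists, genes enriched in whole worms and the 2 largest gonad differences. In the list of other names, *dic-1* is *ints-6*, already a member.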

Additional observations from a re-analysis of the deposited data

How the results depend on the processing

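Of 59 members, 52 kept their call in every refit of the model; the others were *mdt-20*, *mdt-29*, *taf-7.1*, *taf-9*, *taf-11.3*, *taf-13* and *rpb-10*. Taking the median of the shift over all tested genes, log2 fold changes fell by 0.155 with library totals, fell by 0.113 with the authors' log2 values and fell by 0.0709 with a minimum count of 50, and rose by 0.0800 with relative log expression scaling and 0.0830 in DESeq2. Members' values under these settings are read against those shifts; the cause of other changes was not tested.

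Whole-worm-enriched members of Mediator, and so of all complexes, numbered 2 with library totals, with a minimum count of 50, with the authors' log2 values and with no fold minimum, and 1 to 2 over the fits leaving out a library. The median log2 fold change of all members, TFIID and Integrator was 1.83, 1.89 and 2.39 with relative log expression scaling, 1.59, 1.65 and 2.15 with library totals, 1.83, 1.89 and 2.39 in DESeq2 and 1.56, 1.56 and 2.14 with the authors' log2 values in limma, an alternative chosen after seeing the data. With no count filter it was 1.72 for all members and 2.28 for Integrator, with a minimum count of 50 it was 2.24 for Integrator, and without the 4 members that share 10% or more of their exon length it was 1.80 for all members. Leaving out each library in turn gave 1.68 to 1.76 for all members, 1.62 to 1.76 for TFIID and 2.24 to 2.35 for Integrator. It also gave 1.38 to 1.63 for subunits under other names, 1.496 to 1.65 for initiation factors and 1.85 to 2.01 for elongation factors. Those 3 lists had medians of 1.32, 1.34 and 1.72 with library totals and 1.32, 1.30 and 1.72 with the authors' log2 values. Direction turned for *mdt-1.2* (-0.081 with library totals and -0.079 with the authors' values) and *mdt-31* (-0.071 and -0.075 there, and -0.028 to 0.24 over the fits leaving out a library), neither of which passed the test.

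The libraries share replicate numbers, and deviations of equal numbers correlated at 0.218 across genes, but nothing in the labels pairs them. With a replicate block 44 members were gonad-enriched and 1 whole-worm-enriched, and no member crossed the adjusted p threshold. Depth limits *mdt-21*, *rpb-10* and the whole-worm value of *taf-11.2* most.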

Other observations

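Many worm genes lie close together on the same strand, and 34 of the members had a tested protein-coding gene within 500 nucleotides on their own strand. Of these 41 neighbours, none of them members, 27 (65.9%) were gonad-enriched and 2 were enriched in whole worms, with a median log2 fold change of 1.73. Over all 3624 tested genes with such a neighbour, 46.1% were gonad-enriched, with a median of 0.77. The neighbours of *rpb-5* were *syp-4*, a synaptonemal complex gene (6.01), and *sacy-1* (2.16), and those of *mdt-8* were *age-1*, which encodes a phosphatidylinositol 3-kinase (3.07), and *Y62F5A.12* (3.81). A neighbour of *rpb-12*, the ciliary gene *daf-10*, stood at -5.47, against 0.82 for *rpb-12* itself.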
